A study of Mus musculus with 2 samples.

Results

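Fos, Fosb, Jun, Junb, Jund, Egr1, Ier2, Zfp36, Klf6 and Dusp1 are 10 immediate early genes, here read in single bone marrow cells of the Fucci cell cycle reporter mouse. They were taken as a named list, chosen with earlier results of these data known, and all are reported whatever their values. They are 10 of 53272 genes read. Counts were available for 192 cells, 48 in each of 4 sorting gates, all from 8-week-old C57BL/6 mice. The Fucci reporter colours cells orange in G0 and G1 by mKO2 joined to part of Cdt1, and green in S, G2 and M by mAG joined to part of geminin. One library held the mKO2high and mKO2low gates, with much or little orange signal, and the other held the mKO2neg gate, without orange signal, and the mAG+ gate, with green signal. The study's title concerns quiescent blood stem cells, but the labels give the source only as bone marrow and name no surface markers. No animals were named either, so each gate was 1 sample without replicates. Cells of one gate are no replicates of it, so no test was made.

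Immediate early genes are transcribed within minutes of a stimulus, from factors already present in the cell, and their transcripts are short-lived. Fos, Fosb, Jun, Junb and Jund encode basic leucine zipper proteins that pair to form AP-1, a transcription factor that binds a short DNA element in many promoters and enhancers. Egr1 and Klf6 encode zinc finger transcription factors, and Ier2 encodes a small nuclear protein. Zfp36, also called tristetraprolin, promotes the decay of messenger RNAs with AU-rich elements, and Dusp1 is a phosphatase that switches off MAP kinases, so both act as brakes on the response. In bone marrow these genes are expressed in stem and progenitor cells, and handling of live cells is known to induce them, which was not tested here.

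Promoter sequences are printed for 5 of these genes whose windows held a match to a known control element, and for Junb, whose level differed most between mAG+ and mKO2neg among the 10 and whose window held none. The reference used was RefSeq's table of promoters on GRCm38.p6, which matched 8 of the 10 genes and gave 250 bases before each start. These RefSeq starts can differ from the ends of the gene spans given below from GENCODE M21. The windows of Zfp36 and Dusp1 lie within those spans. That of Jund (chr8:70697489-70697738) ends well before its span starts at 70698949. Each sequence is given 5′ to 3′ on the gene's strand, with matches in capitals. For Klf6, Dusp1 and Zfp36 a shorter stretch is shown, because GENCODE M21 has an exon in the window. Those of Fos, Jun, Junb, Klf6, Dusp1 and Zfp36 lie at chr12:85473640-85473889 (plus strand), chr4:95052223-95052472 (minus), chr8:84978749-84978998 (minus), chr13:5861239-5861481 (plus), chr17:26508520-26508722 (minus) and chr7:28379267-28379296 (minus).
Fos: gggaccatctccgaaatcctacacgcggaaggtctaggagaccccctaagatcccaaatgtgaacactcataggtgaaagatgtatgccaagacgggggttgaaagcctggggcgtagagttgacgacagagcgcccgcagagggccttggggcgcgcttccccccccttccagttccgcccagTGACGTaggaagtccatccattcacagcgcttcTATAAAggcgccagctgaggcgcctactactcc
Jun: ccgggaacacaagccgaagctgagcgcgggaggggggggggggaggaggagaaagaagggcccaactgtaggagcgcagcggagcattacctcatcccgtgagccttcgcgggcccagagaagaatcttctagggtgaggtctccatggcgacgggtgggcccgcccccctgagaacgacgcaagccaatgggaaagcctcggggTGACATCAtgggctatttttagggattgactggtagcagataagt
Junb: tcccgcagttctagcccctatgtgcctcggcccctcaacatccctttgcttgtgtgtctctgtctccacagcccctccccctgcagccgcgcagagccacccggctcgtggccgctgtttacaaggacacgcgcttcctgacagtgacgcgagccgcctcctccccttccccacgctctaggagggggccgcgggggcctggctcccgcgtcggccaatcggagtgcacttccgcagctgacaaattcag
Klf6: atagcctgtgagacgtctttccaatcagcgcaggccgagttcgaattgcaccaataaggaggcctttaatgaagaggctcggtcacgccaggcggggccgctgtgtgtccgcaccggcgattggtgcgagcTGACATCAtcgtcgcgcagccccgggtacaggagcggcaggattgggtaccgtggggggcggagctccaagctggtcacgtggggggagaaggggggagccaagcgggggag
Dusp1: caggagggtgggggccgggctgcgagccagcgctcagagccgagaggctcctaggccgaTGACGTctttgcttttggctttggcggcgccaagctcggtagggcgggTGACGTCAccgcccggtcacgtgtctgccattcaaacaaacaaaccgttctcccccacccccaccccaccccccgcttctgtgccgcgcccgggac
Zfp36: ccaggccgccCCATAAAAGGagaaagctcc

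The letters searched on both strands were TGACGT (the cAMP response element core), TGACNTCA (the full-length element that AP-1 and CREB proteins share), TGANTCA (the shorter AP-1 element), TATAAA and the CArG box, the element of serum response factor. TGACNTCA was added after the sequences had been seen, and a TGACGTCA holds both TGACGT and TGACNTCA. Fos held TGACGT beginning 66 bases and TATAAA beginning 33 bases before its start. Jun and Klf6 held TGACATCA, a form of TGACNTCA, beginning 45 and 119 bases before their starts. Dusp1 held TGACGT at 191 bases and TGACGTCA at 143 bases, in which the reverse strand gives an overlapping TGACGT at 141. Zfp36 held a CArG box at 58 bases. Among 32851 promoters of the table, windows of the same length held TGACGT in 6.47%, TGACNTCA in 7.49%, TATAAA in 12.4%, TGANTCA in 6.75% and a CArG box in 1.47%. Of the 8 matched genes, 2 held TGACGT, 3 TGACNTCA, 1 TATAAA, 1 a CArG box and 0 TGANTCA. These matches describe letters only. Bases further before the starts were not searched, and Egr1 and Ier2 had no window, so the absence of a match does not mean that a gene lacks the element.

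Before any level could be read, the deposited labels had to be set against the counts, because rows appeared to carry the counts of the next gene in the annotation. Of 10 genes that nearly every cell transcribes, such as Actb and B2m, the rows under their own labels held 7063 counts together. The rows labelled with the gene just before each in GENCODE M21 held 281877, and all 10 were higher there. Rows 2 genes before held 807 and rows 1 gene after held 478. For the 10 immediate early genes, 742 counts lay under their own labels, with 3 genes at 0, and 38200 in the preceding rows, from 1343 for Egr1 to 10304 for Fos. All values here are therefore those of the preceding row, on the assumption that this displacement holds for each gene. In that annotation (GRCm38) Fos lies at chr12:85473890-85477273, Fosb at chr7:19302696-19310051, Jun at chr4:95049034-95052222, Junb at chr8:84974484-84978718, Jund at chr8:70698949-70700616, Ier2 at chr8:84661331-84662852, Zfp36 at chr7:28376784-28380253, Klf6 at chr13:5861482-5870394 and Dusp1 at chr17:26505590-26562128, all protein-coding, and Egr1 is on chromosome 18. For 9 of the 10 the preceding gene was also next to it in the annotation. Dusp1 was read from the row labelled Neurl1b, with 2 annotated genes between them that have no row here, so its reading is less certain. Rows were read for 64.0% (chromosome 18) to 86.1% (chromosome 15) of the annotated genes of chromosomes 15, 16, 17, 18 and 19, and for at least 97.3% on every other chromosome. Readings on those 5 chromosomes, Egr1 and Dusp1 among them, are therefore less certain, including those at 0. Junb and Prdx2 overlap on opposite strands, as do Jun and Junos, Jund and Gm11175, and Zfp36 and Gm44710. Dusp1 overlaps 4 annotated genes, among them Ergic1. Whether strand was used in counting is not given in the sources used here.

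The gates differed in depth. They held 934036 counts (mKO2high), 1703263 (mKO2low), 1608630 (mKO2neg) and 2791584 (mAG+), with medians per cell from 14510.5 in mKO2high to 45177 in mAG+, and 175 cells had at least 5000 counts. No cell name was shared by the libraries. All 9 stem and progenitor markers examined (Kit, Ly6a, Procr, Slamf1, Cd34, Flt3, Hlf, Mecom and Gata2) had counts in every gate. Their summed levels (CPM, counts scaled to a total of 1000000) ranged from 1265 CPM in mAG+ to 1759 in mKO2high. Between these gates, which are in different libraries, 5 of the 9 were higher in mAG+ and 4 lower, so the sum does not hold for each marker. Of 8 genes of S, G2 and M phase, the sum was 50.3 CPM in mKO2high and 110.4 in mKO2low, then 447 in mKO2neg and 4157 in mAG+, the order that the reporter marks. The T cell genes Cd3e, Cd3g and Trbc2 and the neutrophil gene Ly6g (on chromosome 15, so less certain) were at 0 in every gate. Nkg7, the other gene of the T and NK cell list, was at 0 only in mKO2high. It was at 15.9 CPM in mKO2low (6 cells), 29.2 in mKO2neg (5 cells) and 36.9 in mAG+ (12 cells). Other cells' markers were not all absent. Summed neutrophil and monocyte markers ranged from 862 CPM in mAG+ to 1545 in mKO2neg, megakaryocyte markers from 71.6 in mAG+ to 280.5 in mKO2high, and B cell markers from 81.4 in mKO2high to 187 in mAG+, where alone Cd79a had counts, in 3 cells. A gate sum cannot tell fewer expressing cells from less RNA per cell.

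Summed over the cells of a gate, the 10 genes took 0.903% of all counts in mKO2high and 0.699% in mKO2low, then 0.546% in mKO2neg and 0.325% in mAG+, or 9035, 6991, 5458 and 3250.5 CPM. The cells with the most orange signal thus had the highest sum and the green cells the lowest. The level of 8 genes was highest in mKO2high (27.9% of 7958 genes with at least 100 counts over the 4 gates), and the other two, Jun and Jund, were highest in mKO2low. Again 8 genes were lowest in mAG+ (25.2% of those 7958), where Fosb (lowest in mKO2low) and Jun (lowest in mKO2neg) were the exceptions. Both held for 7 genes, Fos, Junb, Egr1, Ier2, Zfp36, Klf6 and Dusp1. Among the 7958 genes, 11.3% were highest in mKO2high and lowest in mAG+. Fos, Junb, Egr1 and Zfp36 were lower at every step from mKO2high through mKO2low and mKO2neg to mAG+, an order shown by 5.81% of those genes. The plot of levels shows each gate. Steps between mKO2low and mKO2neg, or between mKO2high and mAG+, compare libraries as well as gates, and the library and the gate cannot be told apart there.

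**Figure D1:**
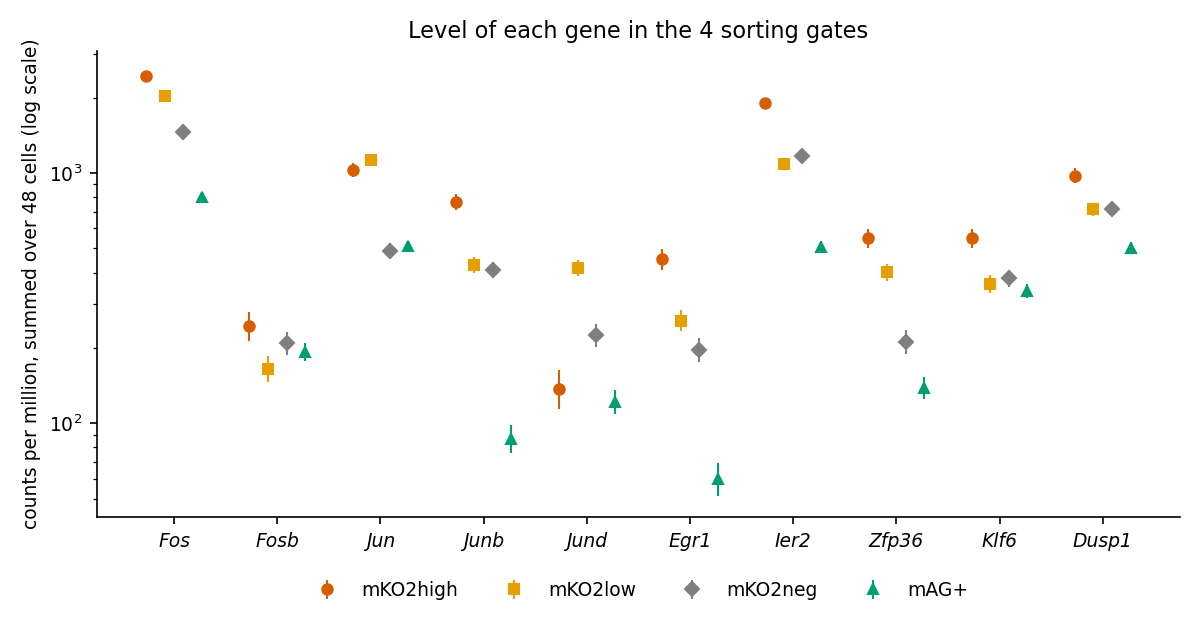
Level of each of the 10 genes in CPM (log axis), summed over the 48 cells of each of 4 gates; bars are exact 95% Poisson intervals, which cover counting error only. The green triangles of mAG+ lie lowest for 8 genes, furthest below the others for Junb (86.7) and Egr1 (59.8), and the orange circles of mKO2high lie highest for 8.

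The design allowed 2 comparisons within a library and 2 more across libraries. In each, a log2 ratio of the gates' CPM was taken with a prior count of 1 (scaled to the gates' totals), with its exact 95% interval for counting error, and a gene was counted as different at 2-fold or more.

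In mKO2low against mKO2high, 8 of the 10 genes were lower and 2 higher. At 2-fold or more, 0 were lower and 1, Jund, was higher. Among 10901 genes with at least 10 counts over both gates, 47.8% were lower by any amount, 15% were lower by 2-fold or more and 19.6% were higher by 2-fold or more. The 10 genes all had many more counts than that, and among 4551 genes with at least 100, 7.05% were lower and 7.95% higher by 2-fold or more. The median log2 ratio of the 10 was -0.51, beside 0.047 for all genes, and their summed CPM had a log2 ratio of -0.37 (-0.41 to -0.33). With each cell weighted equally, the summed ratio was -0.18 and 7 of the 10 were lower. Megakaryocyte markers were also higher in mKO2high, at 280.5 against 115 CPM summed, with 2 of 4 (Ppbp and Gp1bb) at 0 in mKO2high and 0 of 4 at 0 in mKO2low. Their part in the result was not tested.

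In mAG+ against mKO2neg, 9 genes were lower, 3 of them (Junb, Egr1 and Ier2) by 2-fold or more, and 0 were higher by 2-fold or more. Among 12115 genes, 47.2% were lower by any amount, 14.6% were lower by 2-fold or more and 21.2% were higher by 2-fold or more. With at least 100 counts, 7.51% of 6369 genes were lower and 12.5% higher by that much. The median log2 ratio was -0.74, beside 0.063 for all genes, and the summed CPM had a log2 ratio of -0.75 (-0.79 to -0.71). With the deepest cells left out, 1 from each gate, 10 were lower, 6 of them by 2-fold or more (Fos, Junb, Jund, Egr1, Ier2 and Zfp36). With each cell weighted equally, 5 were. The B cell markers Cd79a, Cd79b, Ebf1 and Vpreb1 summed to 187 CPM in mAG+, with all 4 detected, and to 106 in mKO2neg, with Cd79a at 0. Without the 8 mAG+ and 5 mKO2neg cells that had a count of Cd79a, Ebf1 or Vpreb1, 9 were lower, and the 2 lower by 2-fold or more were Junb and Egr1. The summed neutrophil and monocyte markers were lower in mAG+ (log2 ratio -0.84), but of the 6 with enough counts 4 were lower and 2 higher. Camp was at 63.8 CPM in mAG+ against 376 in mKO2neg, S100a8 at 117 against 58.4 and S100a9 at 69.9 against 31.7. Of these 9 markers, Ly6g alone was at 0 in mAG+, and Ly6g and Ly6c2 in mKO2neg. The part of these markers in the result was not tested.

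**Figure D2:**
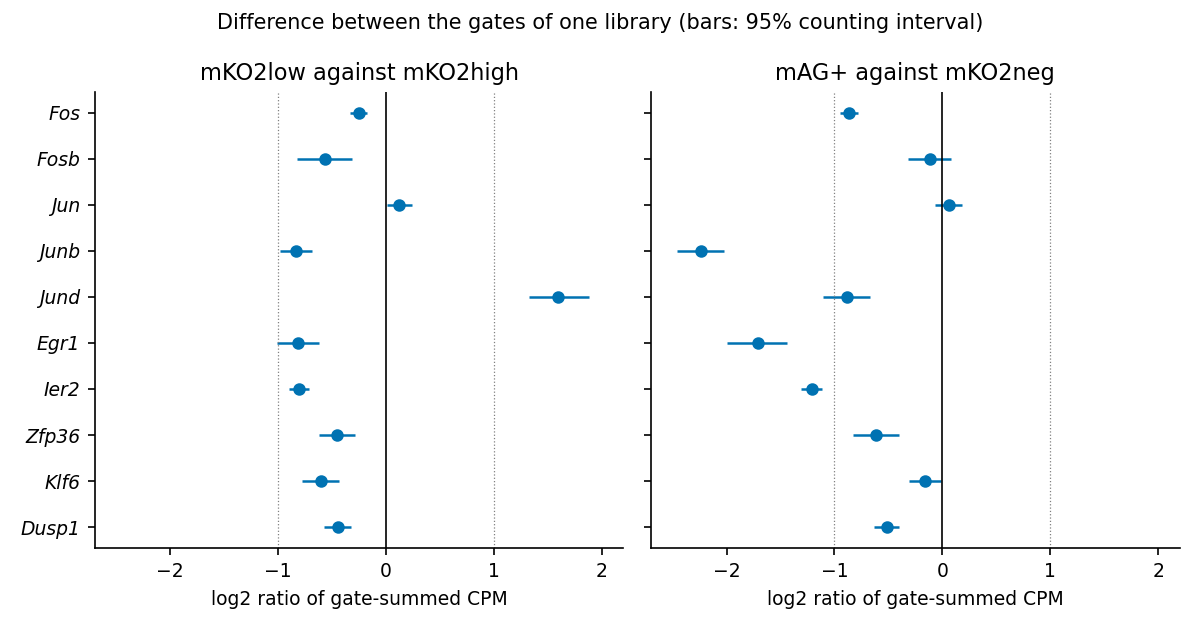
Log2 ratio of gate-summed CPM for each gene in the 2 comparisons made within a library, with exact 95% intervals for counting error only; dotted lines mark 2-fold. On the left Jund alone lies beyond 2-fold (1.60) and on the right Junb (-2.23), Egr1 (-1.71) and Ier2 (-1.21) do.

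Across libraries the median differences were smaller between mKO2neg and mKO2low and larger between the reporter extremes. The summed CPM had a log2 ratio of -0.36 (-0.40 to -0.32) in mKO2neg against mKO2low, close to the -0.37 of mKO2low against mKO2high. With each cell weighted equally, these sums were -0.33 and -0.18. In mAG+ against mKO2high the sum had -1.47 (-1.52 to -1.43). In mKO2neg against mKO2low, 6 genes were lower and 4 higher. Only Jun was lower by 2-fold or more, and 0 genes were higher by that much. Of 11375 genes, 16.7% were lower and 15.3% higher by 2-fold or more (6.7% and 6.53% with at least 100 counts), and 49.5% were lower by any amount. The median was -0.23, beside 0.010 for all genes. Without cells that had a count of Cd79a, Ebf1 or Vpreb1 it was -0.43, and 3 genes (Jun, Jund and Zfp36) were lower by 2-fold or more. In mAG+ against mKO2high, 10 genes were lower, 6 of them (Fos, Jun, Junb, Egr1, Ier2 and Zfp36) by 2-fold or more. Of 11849 genes, 45.7% were lower by any amount, 17.1% lower by 2-fold or more and 26.2% higher by 2-fold or more (10.1% and 17.6% with at least 100 counts). None of the 10 was higher, and with each cell weighted equally 9 were lower. Their median was -1.31, beside 0.12 for all genes. These 4 comparisons share gates, so they are not separate evidence.

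Among the Fos proteins, which form AP-1 only by pairing with a Jun protein, Fos was at 2430.3 CPM in mKO2high and 2037 in mKO2low, then 1452 in mKO2neg and 798 in mAG+, lower at each step. The log2 ratio was -0.25 (-0.33 to -0.18) in mKO2low against mKO2high and -0.86 (-0.95 to -0.78) in mAG+ against mKO2neg. No interval between neighbours in the order included 0. Weighting, however, decided the first step, which was -0.022 when each cell counted equally. Within cells of at least 5000 counts, the median Fos level was 1765 CPM in mKO2high and 1186 in mKO2low, then 903 in mKO2neg and 283 in mAG+. Cells without a Fos count were few in all gates (5 of 39, 8 of 48, 4 of 43 and 7 of 45), so most green cells had Fos counts, at a lower median.

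Fosb, a close relative of Fos, varied least between gates in gate-summed CPM. It was at 244 CPM in mKO2high and 164 in mKO2low, then 209 in mKO2neg and 193 in mAG+. Its log2 ratio was -0.57 (-0.83 to -0.31) in mKO2low against mKO2high and -0.12 (-0.32 to 0.085) in mAG+ against mKO2neg. With each cell weighted equally, the second was -0.75 and Fosb did not vary least. Its mean then ran from 142 CPM in mAG+ to 238 in mKO2neg, a wider range in proportion than that of Klf6 (381 to 525). In the order of gate-summed Fosb levels, mKO2high and mKO2neg, and mKO2neg and mAG+, did not differ beyond counting error. Fosb was also concentrated in few cells. The median cell of mKO2high had no Fosb count, and 1 cell held 31.6% of that gate's Fosb counts and another 32.7% of those in mAG+.

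Of the Jun proteins, Jun is the AP-1 partner that can also pair with itself. It was at 1029.9 CPM in mKO2high and 1122 in mKO2low, then 489 in mKO2neg and 509 in mAG+, so the levels separated by library more than by gate. The log2 ratio was 0.12 (0.011 to 0.24) in mKO2low against mKO2high and 0.057 (-0.069 to 0.18) in mAG+ against mKO2neg. In mKO2neg against mKO2low it was -1.20 (-1.32 to -1.08), but -0.70 when each cell of at least 5000 counts was weighted equally. Median cells differed less, at 402 CPM in mKO2high and 542 in mKO2low, then 378 in mKO2neg and 419.5 in mAG+.

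Junb, a weaker activator than Jun that can hold back Jun's activity, had the widest spread of the 5 AP-1 genes. It was at 767 CPM in mKO2high and 430.4 in mKO2low, then 409.7 in mKO2neg and 86.7 in mAG+. The log2 ratio was -0.83 (-0.98 to -0.68) in mKO2low against mKO2high and -2.23 (-2.46 to -2.03) in mAG+ against mKO2neg, a 4.71-fold lower level. The levels in mKO2low and mKO2neg did not differ beyond counting error, and mAG+ lay far below all others. In mAG+, 1 cell held 40.5% of the Junb counts. Without the cell highest in Junb in each gate, the log2 ratio was -2.52, and without cells that had a count of Cd79a, Ebf1 or Vpreb1 it was -1.65. Median cells followed the same order, with 632 CPM in mKO2high and 261 in mKO2low, then 184 in mKO2neg and 22.2 in mAG+.

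Jund, the Jun protein known for steady expression in resting cells, had another order of levels. It was at 137 CPM in mKO2high and 416 in mKO2low, then 225 in mKO2neg and 122 in mAG+. The log2 ratio was 1.60 (1.33 to 1.88) in mKO2low against mKO2high, a 3.02-fold higher level, and -0.88 (-1.10 to -0.67) in mAG+ against mKO2neg. Both extremes of the reporter were low, and their levels did not differ beyond counting error. Jund counts lay in 20 of 48 mKO2high cells and in 40 of 48 mKO2low cells, and at an equal depth of 5000 counts the expected shares were 27.9% and 65.3%. Over the alternatives other than the own label, the ratio of mKO2low to mKO2high lay between 1.58 and 1.80.

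Egr1, a zinc finger factor that serum response factor switches on and that is known to restrain blood stem cell division, was at 452 CPM in mKO2high and 257 in mKO2low, then 196 in mKO2neg and 59.8 in mAG+. The log2 ratio was -0.81 (-1.01 to -0.62) in mKO2low against mKO2high and -1.71 (-1.99 to -1.44) in mAG+ against mKO2neg, a 3.27-fold lower level. No interval between neighbours included 0. Without cells that had a count of Cd79a, Ebf1 or Vpreb1, the second ratio was -1.15. The median cell had 432 CPM of Egr1 in mKO2high and 125 in mKO2low, then 83.1 in mKO2neg and 29.3 in mAG+. Egr1 counts lay in more mAG+ cells (66.7%) than mKO2neg cells (58.3%) as counted, while at equal depth the expected shares were 22.9% and 42.5%.

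Klf6, a Krüppel-like factor, was at 547 CPM in mKO2high and 359.9 in mKO2low, then 379 in mKO2neg and 338 in mAG+. Its log2 ratio was -0.60 (-0.78 to -0.43) in mKO2low against mKO2high and -0.16 (-0.31 to -0.015) in mAG+ against mKO2neg. In the order of levels mKO2high stood apart from the next gate, while mKO2neg and mKO2low, and mKO2low and mAG+, did not differ beyond counting error. Its median cell was highest in mKO2neg, with 270.1 CPM, against 184 in mKO2high.

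Ier2, the small nuclear protein, was at 1903 CPM in mKO2high and 1089 in mKO2low, then 1171 in mKO2neg and 505 in mAG+. The log2 ratio was -0.81 (-0.90 to -0.71) in mKO2low against mKO2high and -1.21 (-1.31 to -1.11) in mAG+ against mKO2neg, a 2.31-fold lower level. Ier2 was the gene counted in the most cells, in 48 of 48 mKO2low cells and in at least 41 of 48 in each other gate. In mKO2neg against mKO2low the log2 ratio was 0.10 (0.012 to 0.20), but -0.13 with each cell weighted equally and -0.11 without the cell highest in Ier2 in each gate. No direction can be given for that pair.

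Of the brakes on the response, both were highest in mKO2high and lowest in mAG+. Zfp36 was at 549 CPM in mKO2high and 401 in mKO2low, then 211 in mKO2neg and 138 in mAG+. Its log2 ratio was -0.45 (-0.62 to -0.29) in mKO2low against mKO2high and -0.61 (-0.83 to -0.40) in mAG+ against mKO2neg, and no interval between neighbours included 0. With both deepest cells left out, the second ratio was -1.02, and without cells that had a count of Cd79a, Ebf1 or Vpreb1 it was -0.39.

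Dusp1 was at 976 CPM in mKO2high and 715 in mKO2low, then 716 in mKO2neg and 500.4 in mAG+. Its log2 ratio was -0.45 (-0.57 to -0.32) in mKO2low against mKO2high and -0.52 (-0.63 to -0.40) in mAG+ against mKO2neg. The middle pair of gates was level, with a log2 ratio of 0.0021 (-0.12 to 0.12). The first ratio depended on how cells were weighted, since it was 0.024 when each cell counted equally, and the median cell held 367 CPM in mKO2high and 434 in mKO2low.

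The share of cells with a count depends on depth as well as level, so it was also computed as the share expected if every cell of at least 5000 counts were cut to 5000, from the exact hypergeometric chance of drawing no count. As counted, all 10 genes were found in a larger share of mKO2low than mKO2high cells, where 4.28% of 4551 genes with at least 100 counts had a smaller share. At equal depth 7 were found in a smaller share of mKO2low cells (39.3% of those genes), and Jun, Jund and Dusp1 in a larger one. In mAG+ against mKO2neg, 5 were found in a smaller share as counted and 10 at equal depth. Of 6369 genes, 5.02% and 37.4% had a smaller share. The gap at equal depth was widest for Junb, with 25.1% of mAG+ and 53.2% of mKO2neg cells, and narrowest for Jun, with 65.9% and 67.6%. Fos was expected in 73.9% of mKO2high, 71.9% of mKO2low, 76.2% of mKO2neg and 59.5% of mAG+ cells, so among the first 3 gates it varied less in its share of cells than in its level. The 9 mKO2high, 5 mKO2neg and 3 mAG+ cells of under 5000 counts are left out of these values.

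**Figure D3:**
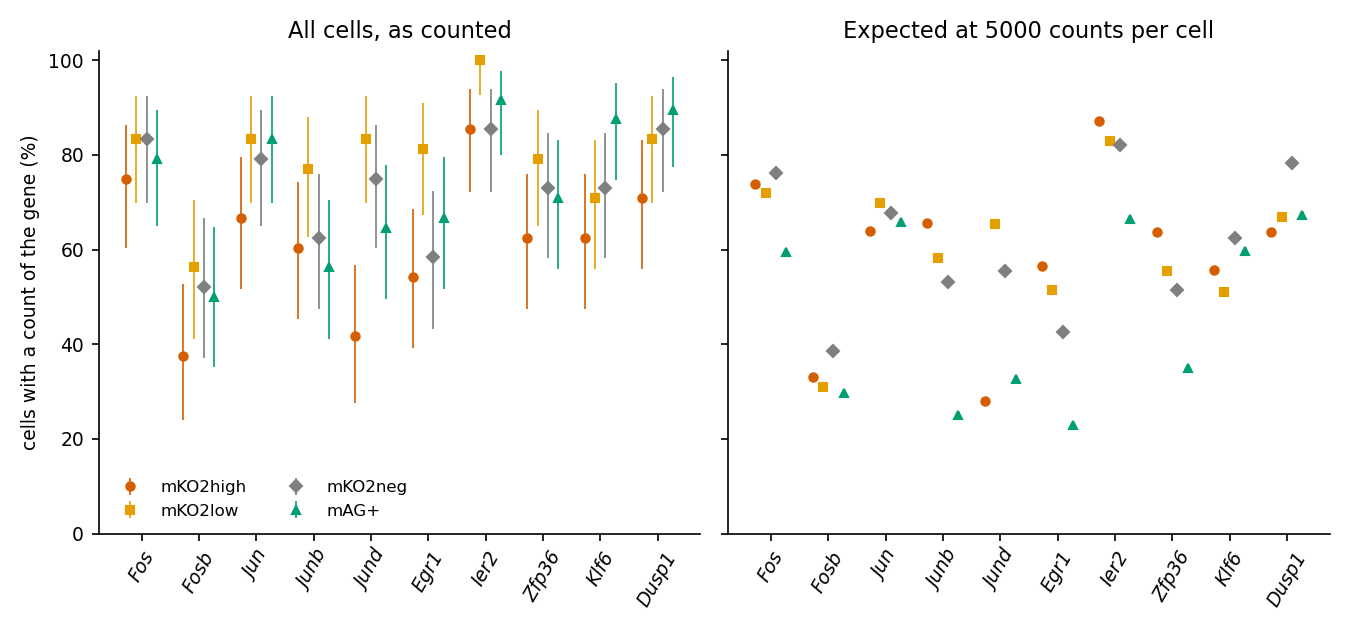
Share of cells with a count of each gene in the 4 gates: left, all 48 cells of a gate with exact Clopper-Pearson 95% intervals; right, the share expected at 5000 counts per cell in the cells of at least that depth. The green triangles of mAG+ are mixed with the others on the left and lie below those of mKO2neg for every gene on the right.

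Cell by cell, the 10 genes together varied widely within each gate. In cells of at least 5000 counts, their summed level had a median of 6912 CPM in mKO2high (quartiles 2998 and 13546), 6083 in mKO2low (2456 and 10339.5), 6307 in mKO2neg (3068 and 8356) and 2754 in mAG+ (798 and 4543). The lowest cells stood at 396, 119, 76.0 and 248 CPM and the highest at 20111, 23077, 16085 and 8679, so every gate held cells with hardly any of these transcripts and the gates overlapped. Against the median of all these cells, 5036 CPM, 25 of 39 mKO2high cells lay above it (64.1%), 28 of 48 mKO2low (58.3%), 24 of 43 mKO2neg (55.8%) and 10 of 45 mAG+ cells (22.2%). The exact binomial 95% interval of the last was 11.2 to 37.1%. This interval treats the cells of a gate as independent and does not cover differences between animals or sorts. It is therefore no test between gates. At 5000 counts a median cell was expected to show 6.50 of the 10 genes in mKO2high and 6.78 in mKO2low, then 6.66 in mKO2neg and 5.02 in mAG+. The 5 cells with most of these counts held 43.1% of them in mKO2high and 31.7% in mKO2low, then 38.9% in mKO2neg and 47.4% in mAG+, while the same cells held 26.6%, 21.7%, 19.7% and 26.7% of all counts.

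**Figure D4:**
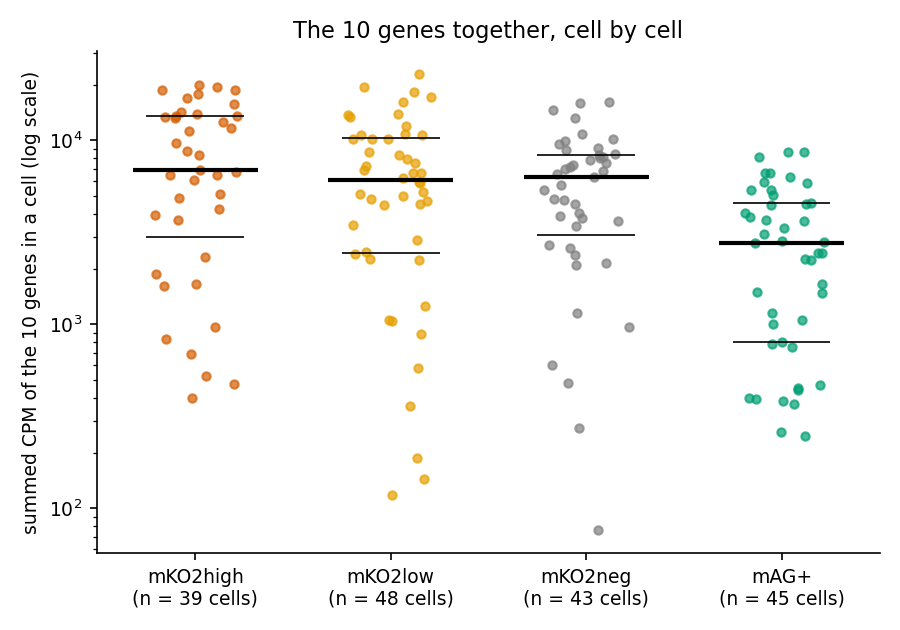
Summed CPM of the 10 genes in each cell of at least 5000 counts (log axis), by gate; thick lines are medians and thin lines quartiles. The mAG+ median (2754) lies below the lower quartile of mKO2neg (3068), and no mAG+ cell exceeds 8679, while the lowest cell of each gate lies between 76.0 and 396.

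The genes varied together across cells. In cells of at least 5000 counts, the median Spearman's rho over the 45 pairs was 0.27 in mKO2high (39 cells), 0.34 in mKO2low (48), 0.27 in mKO2neg (43) and 0.35 in mAG+ (45), and 39, 45, 41 and 45 pairs were positive. Cells of a gate share a library and their values are scaled to their own depth. No background from other gene pairs is given here, so these are descriptions only. Fos and Dusp1 had the highest mean rho over the 4 gates, 0.59, from 0.41 in mKO2neg to 0.78 in mAG+. Fos with Ier2 and Fos with Klf6 followed, both at 0.50. The lowest mean was that of Fosb and Ier2, 0.078, with -0.14 in mKO2neg. Over its 9 pairs Fos had the highest mean rho, 0.41, followed by Dusp1 with 0.40 and Zfp36 with 0.34. Fosb had the lowest, 0.22, next to Jund with 0.22 and Jun with 0.24. Fos and the brakes Dusp1 and Zfp36 thus went most with the other genes, and Jun, Jund and Fosb least. Fosb and Jund each had no count in 22 of the 39 mKO2high cells, and the effect of such zeros on rho was not tested. The summed level had little relation to depth, with rho of 0.18 in mKO2high and 0.072 in mKO2low, then -0.093 in mKO2neg and -0.061 in mAG+. With genes of S, G2 and M phase, rho was -0.019, -0.23, -0.36 and -0.063 in the same order, with stem cell genes 0.10, 0.13, 0.46 and 0.18, and with heat shock genes 0.040, -0.0035, -0.15 and -0.13.

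**Figure D5:**
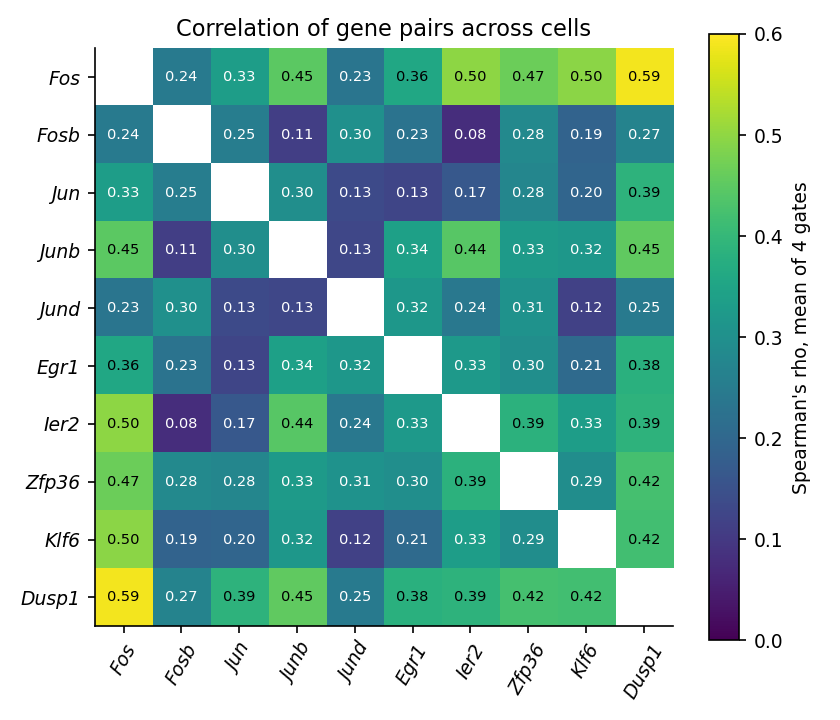
Spearman's rho of per-cell CPM for each pair of the 10 genes, as the mean of the 4 gates (39 to 48 cells each, at least 5000 counts per cell); brighter squares are higher. The Fos row and the Dusp1 row are brightest, with 0.59 where they meet, and the Fosb and Ier2 square is darkest (0.078).

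Outside the list, 5619 genes with a count in at least 25% of these 175 cells were ranked by the mean over gates of their rho with the summed level of the 10. The 5 most alike were H3f3b (0.61), which encodes the histone variant H3.3, Nr4a1 (0.60), an early nuclear receptor, Klf2 (0.52), a Krüppel-like factor, Ppp1r15a (0.47), a stress-induced phosphatase subunit also called GADD34, and Neat1 (0.43), a nuclear long noncoding RNA. The median over all ranked genes was -0.020. Nr4a1 shared the order of extremes, with 489 CPM in mKO2high and 225 in mKO2low, then 270.4 in mKO2neg and 120 in mAG+, and Klf2 did not, with 296 CPM in mKO2low against 164 in mKO2high. Of 15 other immediate early genes that could be ranked, 10 were among the first 100 of the 5619. So were 2 of 5 feedback inhibitors and 1 of 6 heat shock genes. The first 100 held 0 of 11 genes of MAPK, SRF and CREB signalling and 0 of 7 genes of S, G2 and M phase. With only 100 of 5619 genes in that range, a 0 in lists this short says little about them.

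The other genes of the pathway gave a graded picture. Of 32 other immediate early genes, 24 had at least 10 counts in mKO2low and mKO2high together. Of these 1 was higher and 4 were lower in mKO2low by 2-fold or more (19.6% and 15% of all genes with that many counts, which also apply to the further lists), with a median log2 ratio of -0.16. Ppp1r15a was at 308 CPM in mKO2low against 1017 in mKO2high, with a ratio of -1.72 (-1.88 to -1.57), and Plk2, a polo-like kinase induced early, had -1.48 (-1.98 to -1.02). Klf2 was higher, with 0.85 (0.59 to 1.13), and Ier5 with 0.57 (-0.40 to 1.68). In mAG+ against mKO2neg 25 were measured, 3 higher and 8 lower by 2-fold or more (21.2% and 14.6% of all genes, again also for the further lists), with a median of -0.66. Btg2, an inhibitor of proliferation, was at 29.0 CPM in mAG+ and 163 in mKO2neg, a log2 ratio of -2.47 (-2.87 to -2.12), and Csrnp1 had -1.74 (-2.60 to -1.03). Btg1, with 0.35 (-0.0084 to 0.72), was the higher one in enough cells to be named. Egr2, Egr3, Arc, Ccn1, Ccn2 and Ier5l were at 0 in every gate, and Arc lies on chromosome 15. By any amount 19 of the 25 were lower in mAG+, where 47.2% of all genes were.

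Among 15 further AP-1 and related leucine zipper factors, 12 could be measured between mKO2low and mKO2high, 3 of them higher and 1 lower in mKO2low by 2-fold or more, with a median of 0.18. Mafg, a small Maf protein, had a log2 ratio of 1.77 (1.08 to 2.61), Fosl2, a Fos relative, -0.84 (-1.28 to -0.42) and Atf2, a CREB-like factor, -0.76 (-1.30 to -0.24). Between mAG+ and mKO2neg, 10 could be measured, 1 higher and 5 lower by 2-fold or more, with a median of -0.70. There Mafg had -2.55 (-3.35 to -1.93), Fosl2 -1.27 (-1.71 to -0.86), Maff 1.19 (0.48 to 2.03) and Batf 0.14 (-0.25 to 0.54). Batf3 and Jdp2 were at 0 in every gate.

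Genes upstream of the response differed in both directions. Of 22 genes of MAPK, SRF and CREB signalling, 21 were measured in mKO2low against mKO2high, 3 higher and 3 lower by 2-fold or more, with a median of 0.25. Map2k4 had -1.71 (-2.90 to -0.79), Elk4 -1.13 (-1.89 to -0.44), Mapk9 1.00 (0.38 to 1.70) and Mapk14 0.78 (0.33 to 1.27). In mAG+ against mKO2neg 21 were measured, 4 higher and 3 lower, with a median of 0.015. Mapk8, a Jun kinase gene, had 2.77 (1.89 to 4.03), Mapk3, an ERK gene, 1.53 (1.07 to 2.05), Mapk9 -1.39 (-2.10 to -0.76) and Elk3 -1.05 (-1.43 to -0.68).

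Of 16 further feedback inhibitors, 14 were measured in mKO2low against mKO2high, 3 higher and 0 lower by 2-fold or more, with a median of 0.26. Dusp5, which acts on nuclear ERK, had 1.37 (0.85 to 1.96), Zfp36l2, a relative of Zfp36, 0.57 (0.23 to 0.92) and Dusp2 -0.32 (-0.55 to -0.095). All 16 were measured in mAG+ against mKO2neg, 3 higher and 4 lower, with a median of 0.12. Dusp2, a nuclear MAP kinase phosphatase like Dusp1, was at 43.3 CPM in mAG+ and 295 in mKO2neg, a log2 ratio of -2.76 (-3.07 to -2.48). Dusp5 had -1.70 (-2.37 to -1.12), Zfp36l1 1.87 (1.01 to 2.999) and Nab1 0.45 (-0.0081 to 0.93). Dusp5 and Zfp36l2 have annotated genes without a row before them, as Dusp1 has, so their readings are less certain. The list's median and summed CPM differ in sign in mAG+ against mKO2neg, since the sum had a log2 ratio of -0.65.

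Heat shock genes, which answer protein damage and other stress, had medians of the other sign in the comparisons within a library, but not in each across libraries. Of 9, 7 were measured in each comparison. The median was 0.28 in mKO2low against mKO2high, with 1 higher and 0 lower by 2-fold or more, and 0.19 in mAG+ against mKO2neg, again with 1 and 0. By any amount, 6 were higher and 1 lower in the first, and 4 higher and 3 lower in the second. In mKO2neg against mKO2low the median was -0.29, with 6 lower and 1 higher. In mAG+ against mKO2high it was 0.048, beside 0.12 for all genes. Hsp90aa1 was at 1576 CPM in mAG+ and 939.9 in mKO2neg, a log2 ratio of 0.75 (0.66 to 0.83), and Hsph1 had 1.05 (0.31 to 1.92). Dnajb1 was lower in both, with -0.56 (-0.80 to -0.32) and -0.48 (-0.70 to -0.27), and Hspe1 had 0.64 (0.46 to 0.83) and -0.26 (-0.40 to -0.12). Hsph1 had 1.59 (0.83 to 2.53) in mKO2low against mKO2high. Hspa1a and Hspa1b were listed at 0 in every gate. They lie on chromosome 17, so their reading is less certain.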

How the data were processed

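The authors deposited raw counts, whole numbers for each gene and cell. The submitters' processing notes list HISAT2, HTSeq 0.11.3, Seurat and the build mm10. The roles of these tools, the annotation release and any molecular identifiers were not given in the sources used here. Per the labels' protocols, a modified Smart-seq2 method enriched the 3′ ends of transcripts, so levels were not compared between genes. Each gene was read from the row of the preceding gene in GENCODE M21, whose assembly GRCm38 is that of mm10, and 0.229% of the counts lay in rows that gave no gene. A displacement by 1 gene was taken as holding throughout, and 97.6% of genes have their preceding gene next to them in that annotation.

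Counts were summed per gate and scaled to CPM, and log2 ratios used a prior count of 1 and genes with at least 10 counts over both gates. The log2 ratios of summed CPM used no prior. Intervals are at 95% (exact conditional binomial for ratios, Poisson for levels, Clopper-Pearson for shares) and cover counting error only, since reads without known identifiers are not independent molecules. A count of 0 allows up to 3 counts in a gate, or 3.21 CPM (mKO2high), 1.76 (mKO2low), 1.86 (mKO2neg) and 1.07 (mAG+). Equal depth used 5000 counts. The code was tested on simulated data. Python 3.11.15, pandas 2.3.3, scipy 1.17.1, edgeR 4.0.16 and DESeq2 1.42.0 were used, the last 2 only for scaling factors. No doublet caller was run on these singly sorted cells.

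The 10 genes and the further lists were chosen with earlier results of these data known. All 10 are named. Of each further list, the 2 genes with the largest ratio in each direction within a library were named if the higher gate had at least 10 cells with a count, as were the 5 genes most like the 10. Of the marker lists, 2 genes are not reported here and enter no value for their lists. Alternatives were equal weight per cell, a filter on cells (at least 1000 gene rows and under 20% mitochondrial counts), TMM factors, DESeq2 size factors, no count filter, a prior count of 0.5, leaving out each gene's highest cell, and each gene's own label. Leaving out the deepest cells, cells with B cell markers (Cd79a, Ebf1 or Vpreb1), or Dusp1 was chosen after seeing the data.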

Additional observations from a re-analysis of the deposited data

How the results depend on the processing

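The 10 genes' medians and sums gave 96 alternative values over the 4 comparisons. Of these, 65 kept their direction and stayed within a range around the main value, 25 moved and 6 reversed. All 6 were read under the genes' own labels. For sums the range was the interval for counting error. For medians it ran between the medians of the 10 genes' lower and upper limits, which is no interval of the median. Some medians counted as kept therefore changed in size. In mKO2neg against mKO2low, -0.23 became -0.075 without the deepest cells and -0.13 with cells of at least 5000 counts weighted equally. In mKO2low against mKO2high, -0.51 became -0.34 with equal weight. TMM factors, DESeq2 size factors, no count filter, a prior count of 0.5 and the filter on cells moved no median or sum out of its range. Dropping the count filter could not, since all 10 genes had far more than 10 counts in each comparison. Nor could the prior move the sums, which used none. Those values among the 65 therefore tell nothing about stability. In mKO2low against mKO2high, the summed log2 ratio of -0.37 became -0.18 with cells weighted equally, -0.28 with cells of at least 5000 counts weighted equally, -0.27 without the deepest cells and -0.28 without cells with a B cell marker. In mAG+ against mKO2neg, the median and sum were -0.90 and -0.93 with equal weight, -0.94 and -1.01 in cells of at least 5000 counts and -1.03 and -1.05 without the deepest cells, and they were -0.50 and -0.57 without B cell marker cells. In mKO2neg against mKO2low, the sum was -0.20 in cells of at least 5000 counts, -0.41 without each gene's highest cell, -0.23 without the deepest cells, -0.40 without Dusp1 and -0.53 without B cell marker cells, where the median was -0.43. In mAG+ against mKO2high, the median was -1.16 with equal weight and -1.61 without Dusp1, and the sum -1.54 without the deepest cells, -1.55 without Dusp1 and -1.38 without B cell marker cells.

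Under the genes' own labels, where 742 counts lay, median and sum were -0.72 and -0.68 in mKO2low against mKO2high, 1.21 and 0.58 in mAG+ against mKO2neg, 0.64 and 0.13 in mKO2neg against mKO2low, and 0.69 and 0.022 in mAG+ against mKO2high. Single genes reversed there too: Fosb (2.66) in the first, Junb (1.21), Egr1 (0.079) and Ier2 (1.32) in the second, Fosb (-3.89) and Egr1 (0.64) in the third, and Junb (1.41) and Ier2 (0.69) in the last. Otherwise Dusp1 reversed in mKO2low against mKO2high with equal weight (0.024), and Ier2 in mKO2neg against mKO2low with equal weight (-0.13), without its highest cells (-0.11) and without B cell marker cells (-0.26). Only ratios whose main interval excluded 0 were counted as reversed. Signs of other ratios changed too with equal weight. Jun in mAG+ against mKO2neg went from 0.057 to -0.32, and Jund in mAG+ against mKO2high from -0.17 to 0.10. In mKO2neg against mKO2low, Junb went from -0.071 to 0.0037 and Dusp1 from 0.0021 to -0.19. The cause of these changes was not tested. No paired analysis was possible because each gate is 1 sample. Depth limits mKO2high most, where 1 count is worth 1.07 CPM.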
